A study of Rattus norvegicus with 8 samples.

Results

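Expression of 8 germline and oocyte transcription factor genes was followed through 4 stages of rat germ cell induction in culture. They are Sohlh1, Sohlh2, Figla, Nobox, Lhx8, Taf7l, Taf4b and Tbpl2, chosen by symbol among the 22228 named genes of the expression table, and all 8 were found there. The starting stage was the embryonic stem cell (ESC), followed by epiblast-like cells (EpiLC). Then came primordial germ cell-like cells at day 3 (PGCLC_d3), and the same kind of cell after 3 further days with gonadal cells (PGCLC_d3ag3). Each had 2 RNA sequencing libraries, 8 in all. Values are TPM, transcript abundance corrected for gene length and library total, and differences are on the deposited log2(TPM+1) scale, which understates the change of genes with low values.

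All cells were of strain Crlj:WI, and the labels give the genotype as wild type, although PGCLC at either stage were collected by flow sorting on tdTomato, a reporter joined to Nanos3. ESC grew on mouse embryonic fibroblast feeders with the MEK inhibitor PD0325901 at 1 µM, the GSK3 inhibitor CHIR99021 at 3 µM and rat LIF at 1000 U/ml. EpiLC were aggregates begun with 4000 cells per well and kept 60 h in activin A at 20 ng/ml, bFGF at 12 ng/ml and 1% KSR, a serum replacement. For PGCLC_d3, these aggregates received BMP4 at 500 ng/ml, SCF at 100 ng/ml, EGF at 50 ng/ml and rat LIF at 1000 U/ml, and reporter-positive cells were sorted on day 3. For PGCLC_d3ag3, 5000 such sorted cells were aggregated with 50000 gonadal somatic cells, from E15.5 females and depleted of c-KIT-positive germ cells, in medium with 5% KSR, and reporter-positive cells were sorted again on day 3 of aggregation. Whether the 2 libraries of a group are from different cultures is not given in the labels, so a p-value here reflects only their spread, which may be technical. In such bulk libraries, fewer cells of a kind and less RNA per cell cannot be told apart.

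In mice, SOHLH1, SOHLH2 and FIGLA are basic helix-loop-helix (bHLH) proteins that bind E-box sequences as pairs. SOHLH1 and SOHLH2 act in spermatogonia and in oocytes of early follicles, and FIGLA switches on the zona pellucida genes of the egg coat. NOBOX and LHX8 are homeodomain proteins needed in the same young oocytes. TAF7L, TAF4B and TBPL2 are germline or gonadal relatives of TAF7, TAF4 and TBP, parts of TFIID, the complex that sets RNA polymerase II at promoters, and TBPL2 works in oocytes.

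The labelled cell types were checked with marker genes. The summed TPM of the ESC markers Nanog, Klf4, Esrrb, Tbx3 and Zfp42 was 2017 and 2041 in the ESC libraries and at most 199.6 elsewhere. EpiLC markers summed to 2951 and 3180 in EpiLC and at most 157 elsewhere, although Fgf5 was at 0.037 ± 0.053 TPM there (SD, n = 2). The gonadal germ cell markers Ddx4, Dazl and Mael summed to 1026 and 1059 in PGCLC_d3ag3 and to 2.22 and 2.499 in PGCLC_d3, but also to 149.99 and 179.9 in EpiLC and to 55.3 and 61.6 in ESC. The germ cell precursor markers Prdm1, Tfap2c, Nanos3, Dppa3, Kit and Dnd1 summed to 1395 and 1404 in ESC, 60.03 and 71.6 in EpiLC, 1710.4 and 1737 in PGCLC_d3, and 1357 and 1405 in PGCLC_d3ag3. That sum therefore does not separate PGCLC from ESC, where Dppa3 alone was at 1312 and 1306 TPM. Prdm1, Tfap2c, Nanos3, Kit and Dnd1 were each lower in ESC than in both PGCLC groups. In that order their mean TPM was 0.053, 36.0, 0.362, 50.2 and 3.79 in ESC. It was 66.5, 492, 10.8, 398 and 373 in PGCLC_d3. Depth, estimated from the steps between the lowest values, ranged over the libraries from 1 to 2.38 relative to ESC replicate 1, with the highest values, 2.17 and 2.38, in PGCLC_d3ag3.

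**Figure D1:**
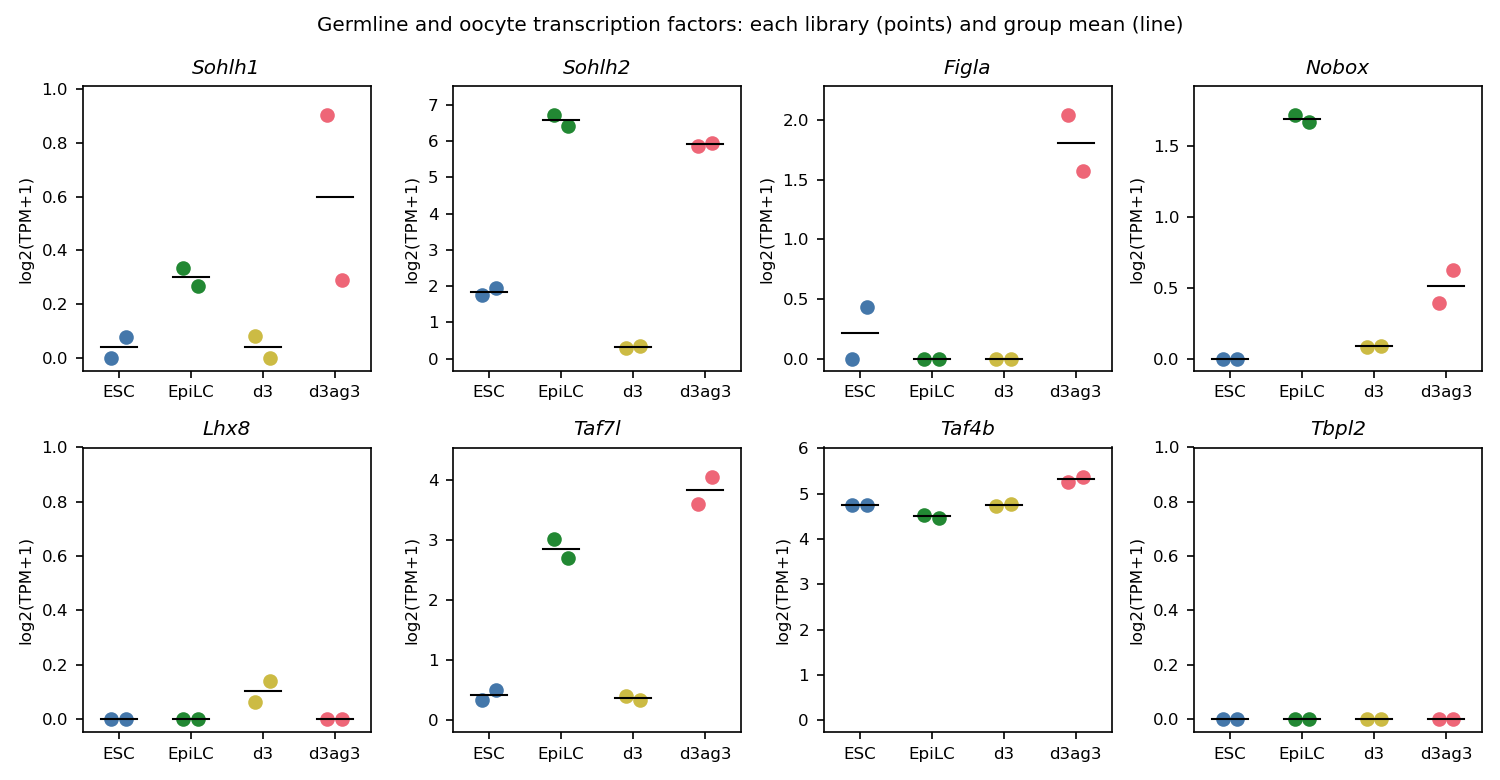
Level of each of the 8 genes on the log2(TPM+1) axis by group (d3 and d3ag3 are PGCLC_d3 and PGCLC_d3ag3); points are the 2 libraries of a group, lines their mean, and the axis differs between panels. Sohlh2 and Taf7l are high in EpiLC and PGCLC_d3ag3 and low in ESC and PGCLC_d3, Figla is highest in PGCLC_d3ag3, Taf4b lies at 4.47 or more in all libraries, and Tbpl2 is at 0 throughout.

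A gene entered the test if it reached 1 TPM in at least 2 libraries, and 5 of the 8 did: Sohlh2, Taf7l, Nobox, Figla and Taf4b. Nobox passed only through EpiLC and Figla only through PGCLC_d3ag3, so some difference was built into their passing, and the numbers of members called support nothing on their own. A difference is called at an adjusted p under 0.05 in limma over the 13571 tested genes. Calls were common in general. For EpiLC versus ESC 4 of these 5 genes were called, against 67.3% of all tested genes. They were 3 higher (35.4% of all tested genes) and 1 lower (31.8%). For PGCLC_d3 versus EpiLC 4 of the 5 were called (74.9% of all tested genes), 1 higher (47.3%) and 3 lower (27.6%). For PGCLC_d3ag3 versus PGCLC_d3 5 of the 5 were called (70.4% of all tested genes), 5 higher (25.7%) and 0 lower (44.8%). For PGCLC_d3 versus ESC 1 of the 5 was called (77.0% of all tested genes), with 0 higher (49.6%) and 1 lower (27.4%). For PGCLC_d3ag3 versus EpiLC 5 of the 5 were called (77.7% of all tested genes), 3 higher (41.0%) and 2 lower (36.7%). For PGCLC_d3ag3 versus ESC 5 of the 5 were called (77.3% of all tested genes), 5 higher (42.5%) and 0 lower (34.8%).

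Sohlh2 had the widest range of the 8 genes. Its level was 2.35 and 2.85 TPM in ESC, 104 and 85.0 TPM in EpiLC, 0.233 and 0.269 TPM in PGCLC_d3, and 57.4 and 60.8 TPM in PGCLC_d3ag3. No group overlapped another. The order of means was EpiLC, PGCLC_d3ag3, ESC and PGCLC_d3, and each neighbour in that order differed past the threshold. EpiLC exceeded ESC by 4.73 on the log2 scale (SE 0.13, limma adjusted p = 1.25e-09), a TPM ratio of 36.4. PGCLC_d3 lay below EpiLC by a log2 difference of -6.25 (SE 0.13, limma adjusted p = 3.22e-10), which is a 376.5-fold lower mean TPM and the 3rd largest fall of all tested genes. After aggregation the level was 235-fold higher in TPM than in PGCLC_d3 (log2 5.59, SE 0.13, limma adjusted p = 2.4e-09), the 16th largest rise of all tested genes. That level was under the one of EpiLC, with PGCLC_d3ag3 minus EpiLC at log2 -0.66 (SE 0.13, limma adjusted p = 7.9e-04), and PGCLC_d3 lay under ESC at log2 -1.52 (SE 0.13, limma adjusted p = 1.94e-06).

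Sohlh1, the usual partner of Sohlh2 in mice, stayed near the limit of detection. It was at 0 and 0.056 TPM in ESC, 0.261 and 0.202 TPM in EpiLC, 0.058 and 0 TPM in PGCLC_d3, and 0.871 and 0.223 TPM in PGCLC_d3ag3, and was not tested because it never reached 1 TPM. PGCLC_d3ag3 overlapped EpiLC and lay above the other groups. Scaled by depth, the values were whole multiples of the lowest value, within 0.15. The deposited values are rounded, so for the larger multiples closeness to a whole number is not informative. Figla gave no such multiples. These were 0 and 1 step in ESC, 4 and 4 in EpiLC, 1 and 0 in PGCLC_d3, and 25 and 7 in PGCLC_d3ag3. If a step is 1 read, the whole gene rests on few reads, and the PGCLC_d3ag3 replicates stand apart. Without a filter on low values, over 19132 genes, PGCLC_d3ag3 exceeded PGCLC_d3 by log2 0.56 (SE 0.17, limma adjusted p = 0.0307). That call was lost, at adjusted p = 0.0785 to 0.166, on leaving out any one ESC, EpiLC or PGCLC_d3 library. The difference was 0.25 without PGCLC_d3ag3 replicate 1 and 0.86 without replicate 2, so it depends on which library is used. With either left out the spread between these 2 libraries is no longer in the fit, so no p is given for those cases.

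Figla was highest in PGCLC_d3ag3. It was at 3.12 and 1.98 TPM in PGCLC_d3ag3, at 0 in both PGCLC_d3 and both EpiLC libraries, and at 0 and 0.353 TPM in ESC. PGCLC_d3ag3 did not overlap any other group. The difference was log2 1.81 against PGCLC_d3 and against EpiLC (SE 0.18, limma adjusted p = 1.45e-05 and 8.03e-06), and 1.59 against ESC (SE 0.18, limma adjusted p = 2.07e-05). Figla entered the test only through PGCLC_d3ag3, so these p-values draw on the values that let it in and are description only. The EpiLC and PGCLC_d3 libraries, all at 0, add no spread to that SE. The 3 other groups did not differ past the threshold, with EpiLC minus ESC and PGCLC_d3 minus ESC both at log2 -0.22 (SE 0.18, limma adjusted p = 0.311 and 0.292).

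Nobox peaked in EpiLC. It was at 0 in both ESC libraries, at 2.29 and 2.18 TPM in EpiLC, at 0.058 and 0.067 TPM in PGCLC_d3, and at 0.315 and 0.543 TPM in PGCLC_d3ag3. In depth-scaled steps of the lowest value, these were 0 and 0, 35 and 43, 1 and 1, and 9 and 17 in the same order of groups. Numbers such as 35 and 43 are inexact because the values are rounded. None of the 4 groups overlapped. EpiLC exceeded ESC by log2 1.69 (SE 0.12, limma adjusted p = 9.7e-07), and PGCLC_d3 lay below EpiLC by log2 -1.61 (SE 0.12, limma adjusted p = 1.12e-06). PGCLC_d3ag3 was above PGCLC_d3 by log2 0.42 (SE 0.12, limma adjusted p = 0.00968), yet below EpiLC by log2 -1.18 (SE 0.12, limma adjusted p = 8.55e-06). Nobox entered the test only through EpiLC, so the p-values against EpiLC draw on the values that let it in and are description only. PGCLC_d3 minus ESC was log2 0.09 (SE 0.12, limma adjusted p = 0.522).

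Lhx8 was at 0.044 and 0.102 TPM in PGCLC_d3, which are 1 and 2 steps, and at 0 in the other 6 libraries. It was too low to be tested, and without the filter PGCLC_d3 minus EpiLC was log2 0.10 (SE 0.04, limma adjusted p = 0.0547). PGCLC_d3ag3 minus PGCLC_d3 was -0.10 (SE 0.04, limma adjusted p = 0.0583). It was -0.14 without PGCLC_d3 replicate 1 and -0.062 without replicate 2. With either left out the spread between these libraries is no longer in the fit, so no p is given for those cases. Tbpl2 was listed at 0 in all 8 libraries. The oocyte form of TBP was thus not detected at this depth in any group, whereas Tbp itself was at 73.4 and 81.9 TPM in ESC, 75.1 and 77.1 TPM in EpiLC, 145 and 141 TPM in PGCLC_d3, and 138 and 147 TPM in PGCLC_d3ag3.

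Taf7l shared the high and low stages of Sohlh2, but its highest level came after aggregation. It was at 0.259 and 0.410 TPM in ESC, 7.09 and 5.51 TPM in EpiLC, 0.328 and 0.265 TPM in PGCLC_d3, and 11.2 and 15.7 TPM in PGCLC_d3ag3. ESC and PGCLC_d3 overlapped each other and lay far below the other groups. EpiLC exceeded ESC by log2 2.45 (SE 0.18, limma adjusted p = 1.18e-06). PGCLC_d3 was 21.3-fold below EpiLC in mean TPM (log2 -2.49, SE 0.18, limma adjusted p = 8.35e-07), and PGCLC_d3ag3 was 45.3-fold above PGCLC_d3 (log2 3.46, SE 0.18, limma adjusted p = 2.23e-07). PGCLC_d3ag3 also exceeded EpiLC, by log2 0.97 (SE 0.18, limma adjusted p = 5.8e-04). PGCLC_d3 minus ESC was log2 -0.04 (SE 0.18, limma adjusted p = 0.847).

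Taf7, the general counterpart of Taf7l, was far more abundant in every library. It was at 138 and 133 TPM in ESC, 154 and 142 TPM in EpiLC, 120.01 and 120.1 TPM in PGCLC_d3, and 222 and 226 TPM in PGCLC_d3ag3. The Taf7l share of the summed TPM of both genes was 0.187% and 0.3065% in ESC, 4.40% and 3.73% in EpiLC, 0.272% and 0.220% in PGCLC_d3, and 4.78% and 6.50% in PGCLC_d3ag3. The germline form was thus a minor part of the pair at every stage. Taf4 is not analysed here.

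Taf4b was present in all libraries and varied least of the tested members. It was at 26.0 TPM in both ESC libraries, 22.2 and 21.1 TPM in EpiLC, 25.4 and 26.3 TPM in PGCLC_d3, and 37.5 and 40.5 TPM in PGCLC_d3ag3. PGCLC_d3ag3 stood above the other groups, by log2 0.57 over PGCLC_d3 (SE 0.08, limma adjusted p = 1.14e-04), 0.82 over EpiLC (SE 0.08, limma adjusted p = 5.88e-06) and 0.57 over ESC (SE 0.08, limma adjusted p = 8.84e-05). ESC and PGCLC_d3 overlapped (log2 -0.01 for PGCLC_d3 minus ESC, SE 0.08, limma adjusted p = 0.932). After quantile normalization and median-of-ratios rescaling that difference became a called fall (log2 -0.28 and -0.31, limma adjusted p = 0.00611 and 0.00347). EpiLC lay slightly under ESC (log2 -0.25, SE 0.08, limma adjusted p = 0.0165), a call lost without EpiLC replicate 2 (adjusted p = 0.0859). The PGCLC_d3 minus EpiLC value of log2 0.24 (SE 0.08, limma adjusted p = 0.0171) is close to the median of all tested genes in that comparison, 0.21, and became -0.065 after quantile normalization and -0.014 after median-of-ratios rescaling. That shift of all genes was 0.25 for PGCLC_d3 versus ESC and -0.18 for PGCLC_d3ag3 versus PGCLC_d3. Of the called genes, 63.2% were higher for PGCLC_d3 versus EpiLC, 64.4% for PGCLC_d3 versus ESC and 36.4% for PGCLC_d3ag3 versus PGCLC_d3. After median-of-ratios rescaling, these were 49.2%, 49.8% and 50.0%, and after quantile normalization 51.1%, 53.1% and 49.4%.

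**Figure D2:**
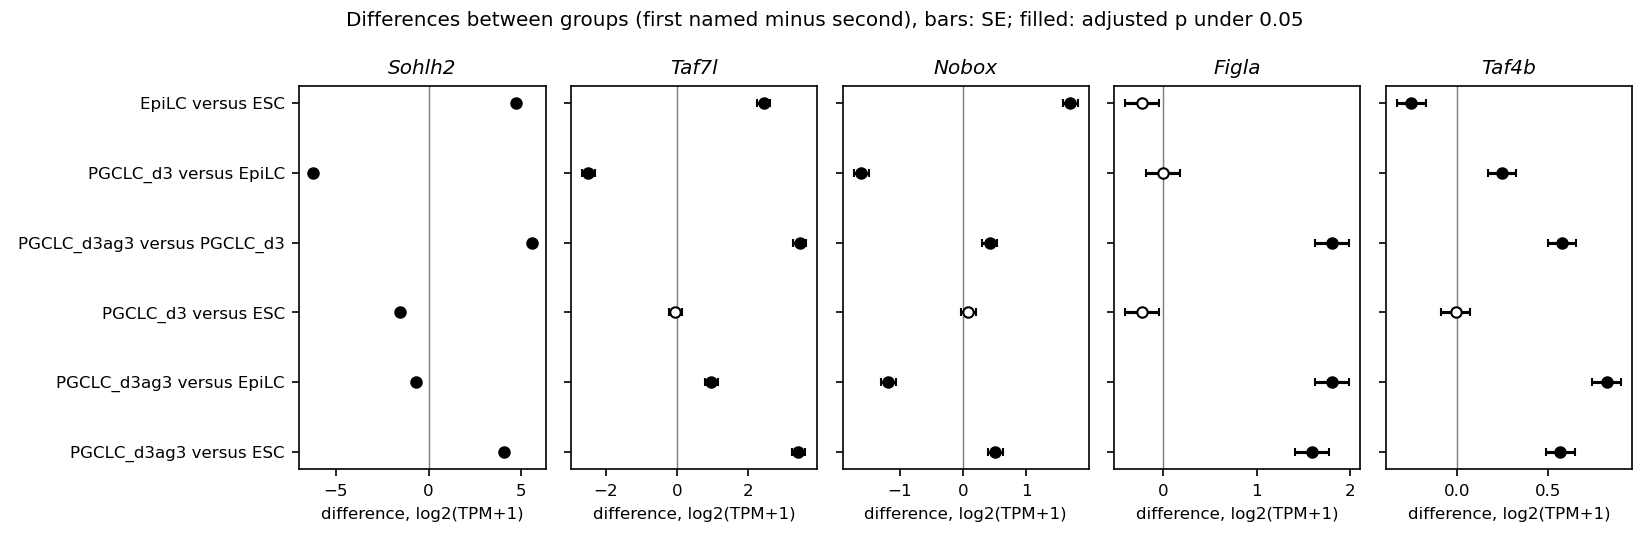
Differences of the 5 tested genes in the 6 comparisons, as log2(TPM+1) of the first named group minus the second; bars are SE from the limma fit, filled points passed an adjusted p under 0.05, and the axis differs between panels. For Sohlh2 the values run from -6.25 for PGCLC_d3 versus EpiLC to 5.59 for PGCLC_d3ag3 versus PGCLC_d3, whereas those of Taf4b stay between -0.25 and 0.82.

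Markers of other cell types moved with some of these differences. The 12 gonadal somatic cell markers in the table, Gata4, Wt1, Nr5a1, Foxl2, Amhr2, Lhx9, Fst, Wnt4, Rspo1, Pdgfra, Upk3b and Inha, summed to 20.5 and 29.8 TPM in PGCLC_d3ag3 and 10.7 and 12.7 TPM in PGCLC_d3. They had a mean of at least 1 TPM for 7 and 3 of the 12 genes, and the granulosa factor Foxl2 was at 0.375 ± 0.122 and 0.034 ± 0.049 TPM (SD, n = 2) in the same order. In EpiLC they summed to 18.4 and 19.9 TPM, with Foxl2 and Upk3b at 0, and in ESC to 4.46 and 5.25 TPM, with Wt1, Foxl2, Lhx9 and Upk3b at 0. The 9 fibroblast and feeder markers (Col1a1, Col1a2, Col3a1, Dcn, Lum, Thy1, Postn, Pdgfrb, Acta2) summed to 43.9 and 82.6 TPM in EpiLC and 24.1 and 29.3 TPM in ESC. They summed to 12.0 and 15.3 TPM in PGCLC_d3ag3, with Lum and Acta2 at 0, and 4.04 and 7.39 TPM in PGCLC_d3, with Dcn and Lum at 0. Their part in the differences of the transcription factor genes was not tested.

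Promoter sequences of all 8 genes were found in a RefSeq table of the build GRCr8, which is not the build of the expression values, as 9 windows of 250 bases before a start that the table gives. The second Lhx8 window lies wholly within the gene as annotated. For Taf7l and Taf4b that start lies within the gene as annotated, so that 51 and 79 bases of the window are inside it. The 4 below are shown because Sohlh1, Taf7l and Taf4b are the members with a CACGTG, the E-box read by MAX-containing dimers such as MGA with MAX, a germline repressor in mouse stem cells, and because Sohlh2, which has none, changed most. CACGTG is in capitals, and those inside bases are not printed.
Sohlh1, chr3:29065589-29065838, minus strand: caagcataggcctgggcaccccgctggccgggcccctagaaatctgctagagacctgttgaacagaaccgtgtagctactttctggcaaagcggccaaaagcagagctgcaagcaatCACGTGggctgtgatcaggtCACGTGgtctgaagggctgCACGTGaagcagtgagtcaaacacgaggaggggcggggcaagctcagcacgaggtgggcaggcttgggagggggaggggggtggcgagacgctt
Taf7l, chrX:101968337-101968535, minus strand: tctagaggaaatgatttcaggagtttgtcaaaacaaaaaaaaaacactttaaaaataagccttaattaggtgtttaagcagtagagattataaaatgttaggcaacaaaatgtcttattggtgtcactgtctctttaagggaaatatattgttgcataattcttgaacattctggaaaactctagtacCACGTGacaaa
Taf4b, chr18:6227128-6227298, plus strand: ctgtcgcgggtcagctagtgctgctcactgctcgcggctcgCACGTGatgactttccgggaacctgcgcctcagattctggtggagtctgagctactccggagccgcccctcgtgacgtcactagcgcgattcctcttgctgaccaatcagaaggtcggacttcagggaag
Sohlh2, chr2:141512160-141512409, plus strand: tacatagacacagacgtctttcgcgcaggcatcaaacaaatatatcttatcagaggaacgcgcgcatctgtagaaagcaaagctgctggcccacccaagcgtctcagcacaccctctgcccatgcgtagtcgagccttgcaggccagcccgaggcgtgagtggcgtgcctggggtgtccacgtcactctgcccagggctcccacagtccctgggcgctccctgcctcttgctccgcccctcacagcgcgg

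CACGTG, which reads the same on both strands, was in 5.59% of the 33469 windows of the table. Sohlh1 had 3 copies, with first bases at -133, -113 and -94 from the start in the table, where 0.05% of all windows held 3 or more. Taf7l had 1 at -62 and Taf4b 1 at -209 from that start, which are -11 and -130 from the first base of the annotated gene. The wider E-box CANNTG, which includes CACGTG and also reads on both strands, was in 65.54% of all windows. Sohlh1 held no CANNTG beyond its CACGTG copies, and Figla and Tbpl2 held 5 each, where 11.55% of windows had 3 or more. TTCCCGC or its reverse complement, a motif of E2F6, was in none of the members' windows and in 3.36% of all. The homeodomain motif TAATTG, searched on both strands, was in none and in 7.31% of all, and TAATTA only in that of Taf7l, where 4.86% of all held it. CpG dinucleotides numbered 17 in the Sohlh2 window, 27 in Taf4b, 12 each in Sohlh1 and Nobox, 4 in Figla, 3 in Taf7l and 2 in Tbpl2, with a median of 5 over the table. Lhx8 has 2 annotated starts, with 5 and 22, the latter in the window within the annotated gene.

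The partners and inhibitors of bHLH proteins changed along the same stages. E proteins, the general bHLH partners, stayed abundant. Tcf3 was at 186 and 187 TPM in ESC, 209 and 211 TPM in EpiLC, 223 and 227 TPM in PGCLC_d3, and 171.2 and 170.8 TPM in PGCLC_d3ag3. Tcf12 ranged from 34.0 to 54.3 TPM over all libraries, and Tcf4 reached at most 20.5 TPM. ID proteins bind E proteins and keep them off DNA. Id1 was at 278 and 317 TPM in PGCLC_d3 against 13.5 and 17.3 TPM in EpiLC (log2 4.20, SE 0.15, limma adjusted p = 7.11e-09), and Id2 at 503 and 563 TPM against 65.2 and 66.1 TPM (log2 3.00, SE 0.07, limma adjusted p = 1.01e-09). Id3 had the steepest rise of the list in that step, at 840.02 and 905 TPM in PGCLC_d3 against 15.7 and 12.7 TPM in EpiLC (log2 5.85, SE 0.09, limma adjusted p = 9.22e-11), and Id4 was at 30.4 and 36.2 against 1.58 and 1.67 TPM (log2 3.70, SE 0.14, limma adjusted p = 1.06e-08). After aggregation Id1, Id2 and Id4 fell, with PGCLC_d3ag3 minus PGCLC_d3 at log2 -2.31, -3.05 and -1.95 (SE 0.15, 0.07 and 0.14, limma adjusted p = 7.71e-07, 3.35e-09 and 1.63e-06). Id3 stayed at 761 and 756 TPM (log2 -0.20, SE 0.09, limma adjusted p = 0.0597), fell after quantile normalization (log2 -0.38, adjusted p = 0.00386) and was at 0.014 after median-of-ratios rescaling (adjusted p = 0.902).

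Of the 7 genes of this list, 4 rose and 1 fell for EpiLC versus ESC, against 35.4% and 31.8% of all tested genes (median log2 0.17 against 0.04). For PGCLC_d3 versus EpiLC 5 rose and 0 fell, against 47.3% and 27.6% of all (median 3.00 against 0.21), with Tcf3 and Tcf4 not called. Under median-of-ratios rescaling Tcf3 and Tcf4 fell there and Tcf12 was no longer called, and under quantile normalization Tcf3 rose and Tcf4 fell. For PGCLC_d3ag3 versus PGCLC_d3 6 fell and 0 rose, against 44.8% and 25.7% of all (median -0.61 against -0.18). Among those that fell were Tcf3 at log2 -0.39, Tcf12 at -0.61 and Tcf4 at -0.43. After quantile normalization Tcf4 was no longer called there (adjusted p = 0.275).

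**Figure D3:**
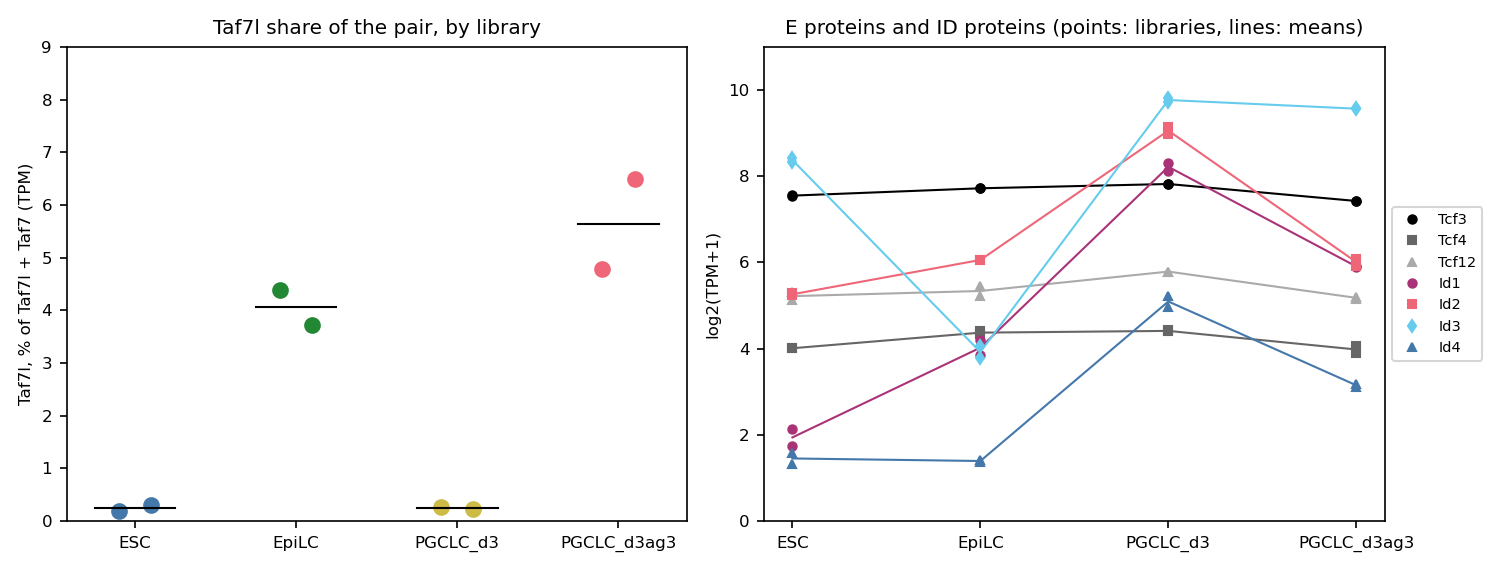
Left, Taf7l as a percentage of the summed TPM of Taf7l and Taf7 by group, with points for libraries and lines for means. Right, log2(TPM+1) of the E protein genes Tcf3, Tcf4 and Tcf12 and of Id1 to Id4 by group, with points for libraries and lines through group means; Id1, Id2 and Id4 are highest in PGCLC_d3, Id3 is high in both PGCLC groups, and the E protein genes stay within a narrow band.

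Of the 16 listed TFIID subunits and general paralogues, Tbpl1 among the paralogues, 15 were found and all were tested. The largest change among them was smaller than that of Taf7l in each successive step. For EpiLC versus ESC 3 rose and 5 fell, against 35.4% and 31.8% of all tested genes (median 0.00 against 0.04). The largest called changes were in Taf12 at log2 -1.93, Tbpl1 at 0.74 and Taf9b at -0.64. After quantile normalization 5 rose and 5 fell. Without EpiLC replicate 1, 2 rose and 3 fell, and Taf9b was no longer called (adjusted p = 0.0573), nor was it without ESC replicate 1 (adjusted p = 0.0735). For PGCLC_d3 versus EpiLC 8 rose and 4 fell, near the 47.3% and 27.6% of all tested genes (median 0.34 against 0.21). These were 5 and 7 after median-of-ratios rescaling and 5 and 5 after quantile normalization. Taf13 was at log2 -2.05, Taf6 at 1.01 and Tbp at 0.90 (SE 0.07, limma adjusted p = 1.21e-06). For PGCLC_d3ag3 versus PGCLC_d3 3 rose and 7 fell, near the 25.7% and 44.8% of all tested genes (median -0.17 against -0.18). These were 5 and 4 after median-of-ratios rescaling and 3 and 5 after quantile normalization. Taf7 led at log2 0.90 (SE 0.06, limma adjusted p = 7.18e-07), with Taf1 at -0.88 and Taf2 at -0.76.

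Oocyte genes, among them known targets of FIGLA and NOBOX in mice, were mostly at or near 0. Of the 17 found, 4 passed the filter, Kit, Jag1, Ybx2 and Zp3. Bmp15 and Bcl2l10 were at 0 in all 8 libraries. In PGCLC_d3ag3, Figla was at 3.12 and 1.98 TPM and Sohlh2 at 57.4 and 60.8 TPM. There Zp1 and Zp4 were at 0, Zp2 at 0.393 and 0.207 TPM and the growth factor gene Gdf9 at 0 and 0.027 TPM. Zp3, which encodes an egg coat protein, followed Sohlh2 in direction. It was at 0.725 and 0.597 TPM in ESC, 4.602 and 3.03 TPM in EpiLC, 0.413 and 0.477 TPM in PGCLC_d3, and 1.38 and 2.52 TPM in PGCLC_d3ag3. EpiLC exceeded ESC by log2 1.52 (SE 0.21, limma adjusted p = 1.07e-04), PGCLC_d3 lay below EpiLC by log2 -1.72 (SE 0.21, limma adjusted p = 3.47e-05), and PGCLC_d3ag3 above PGCLC_d3 by log2 1.00 (SE 0.21, limma adjusted p = 0.00161). Ybx2, an RNA-binding protein of germ cells, moved likewise at a higher level, at log2 -1.73 for PGCLC_d3 versus EpiLC and 1.24 for PGCLC_d3ag3 versus PGCLC_d3 (SE 0.08 each, limma adjusted p = 3.09e-08 and 6.09e-07). Kit, which encodes the SCF receptor, went the other way, at log2 -1.77 for EpiLC versus ESC and 4.75 for PGCLC_d3 versus EpiLC (SE 0.11 each, limma adjusted p = 4.55e-07 and 7.16e-10). Jag1, a Notch ligand gene, fell by 2.69 on the log2 scale in EpiLC against ESC (SE 0.26, limma adjusted p = 1e-05). Jag1 was at 1.47 and 0.253 TPM in PGCLC_d3ag3 and 1.90 and 1.71 TPM in PGCLC_d3 (log2 -0.67, SE 0.26, limma adjusted p = 0.0427). That difference rests on PGCLC_d3ag3 replicate 2, without which it was -0.18, against -1.16 without replicate 1. With either left out the spread between these libraries is no longer in the fit, so no p is given for those cases. The Jag1 call was lost after quantile normalization (log2 -0.42, limma adjusted p = 0.201) and after median-of-ratios rescaling (log2 -0.54, limma adjusted p = 0.095). It was also lost without any one ESC, EpiLC or PGCLC_d3 library.

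Other germline transcription factors did not share one course. Of 13 genes 9 were tested. For EpiLC versus ESC 1 rose and 3 fell, against 35.4% and 31.8% of all tested genes (median 0.08 against 0.04). The largest called changes were in Zglp1 at log2 -2.19, Foxo3 at -0.86 and Nr6a1 at -0.86. For PGCLC_d3 versus EpiLC 3 rose and 4 fell, against 47.3% and 27.6% of all (median 0.29 against 0.21). Rfx2, at 1.08 and 1.07 TPM in PGCLC_d3, entered the test only through that group, so some difference was built into its passing. Dmrt1, a sex and germ cell factor gene, was at 9.76 and 10.2 TPM in PGCLC_d3 against 0.291 and 0.226 TPM in EpiLC (log2 3.12, SE 0.15, limma adjusted p = 4.91e-08), and rose further to 25.6 and 33.8 TPM in PGCLC_d3ag3 (log2 1.47 over PGCLC_d3, SE 0.15, limma adjusted p = 1.45e-05). Tcfl5 and Foxo1 changed by log2 -1.55 and -0.98 for PGCLC_d3 versus EpiLC. For PGCLC_d3ag3 versus PGCLC_d3 5 rose and 1 fell, against 25.7% and 44.8% of all (median 0.29 against -0.18). Zglp1, a driver of the oogenic programme in mice, was there at 9.49 and 7.30 TPM in PGCLC_d3ag3 against 2.73 and 2.76 TPM in PGCLC_d3 (log2 1.32, SE 0.17, limma adjusted p = 9.27e-05), and Foxo1 fell by 0.76 on the log2 scale. In that last comparison, 7 rose and 1 fell after quantile normalization, and 6 and 1 after median-of-ratios rescaling. After quantile normalization 0 rose and 3 fell for EpiLC versus ESC, and 2 and 4 for PGCLC_d3 versus EpiLC. The 5 rises for PGCLC_d3ag3 versus PGCLC_d3 became 2 without PGCLC_d3ag3 replicate 2 or PGCLC_d3 replicate 2 and 3 without PGCLC_d3 replicate 1. The 1 rise for EpiLC versus ESC became 0 without ESC replicate 2 or EpiLC replicate 2, and 3 without either PGCLC_d3ag3 replicate.

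Gonadal germ cell genes that are not transcription factors mostly rose and fell at the same steps as Sohlh2 and Taf7l. All 15 were tested. Ddx4, Dazl and Mael are also the gonadal germ cell markers given above, so this list is not independent of that check. For EpiLC versus ESC 13 rose and 0 fell, against 35.4% and 31.8% of all tested genes (median 1.19 against 0.04). Sycp3, part of the meiotic chromosome axis, led at log2 2.79, with Tex14 at 2.38 and the RNA-binding protein gene Dazl at 2.07. For PGCLC_d3 versus EpiLC 13 fell and 1 rose, against 27.6% and 47.3% of all (median -1.37 against 0.21). The RNA helicase gene Ddx4 was at log2 -6.02, Fkbp6 at -4.50 and Stk31 at -3.48. For PGCLC_d3ag3 versus PGCLC_d3 all 15 rose, against 25.7% of all (median 4.45 against -0.18), with Dazl at log2 9.17, Stk31 at 6.57 and Ddx4 at 6.47. Tdrd9, at 1.63 and 2.54 TPM in PGCLC_d3ag3, entered the test only through that group, so its rise was built into its passing. The same counts held after median-of-ratios rescaling in these 3 comparisons, and after quantile normalization the 1 rise for PGCLC_d3 versus EpiLC, of Brdt, was no longer called, nor was it without EpiLC replicate 2 (adjusted p = 0.0539). Of the 12 list genes with a promoter window, 8 held a CACGTG in at least 1 window. It was so for 2 of 12 oocyte genes and 2 of 9 other germline transcription factors. Of the TFIID subunits and general paralogues 1 of 15 held it, and of the bHLH partners and inhibitors 0 of 7. The 5.59% given above is per window and genes can have more than 1, so it is not a like share. No share per gene over all genes was computed, so whether 8 of 12 is an excess was not tested. CACGTG holds a CpG. The median CpG count of these lists, in the order just given, was 13, 2.5, 17, 18 and 19, against 5 over all windows.

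**Figure D4:**
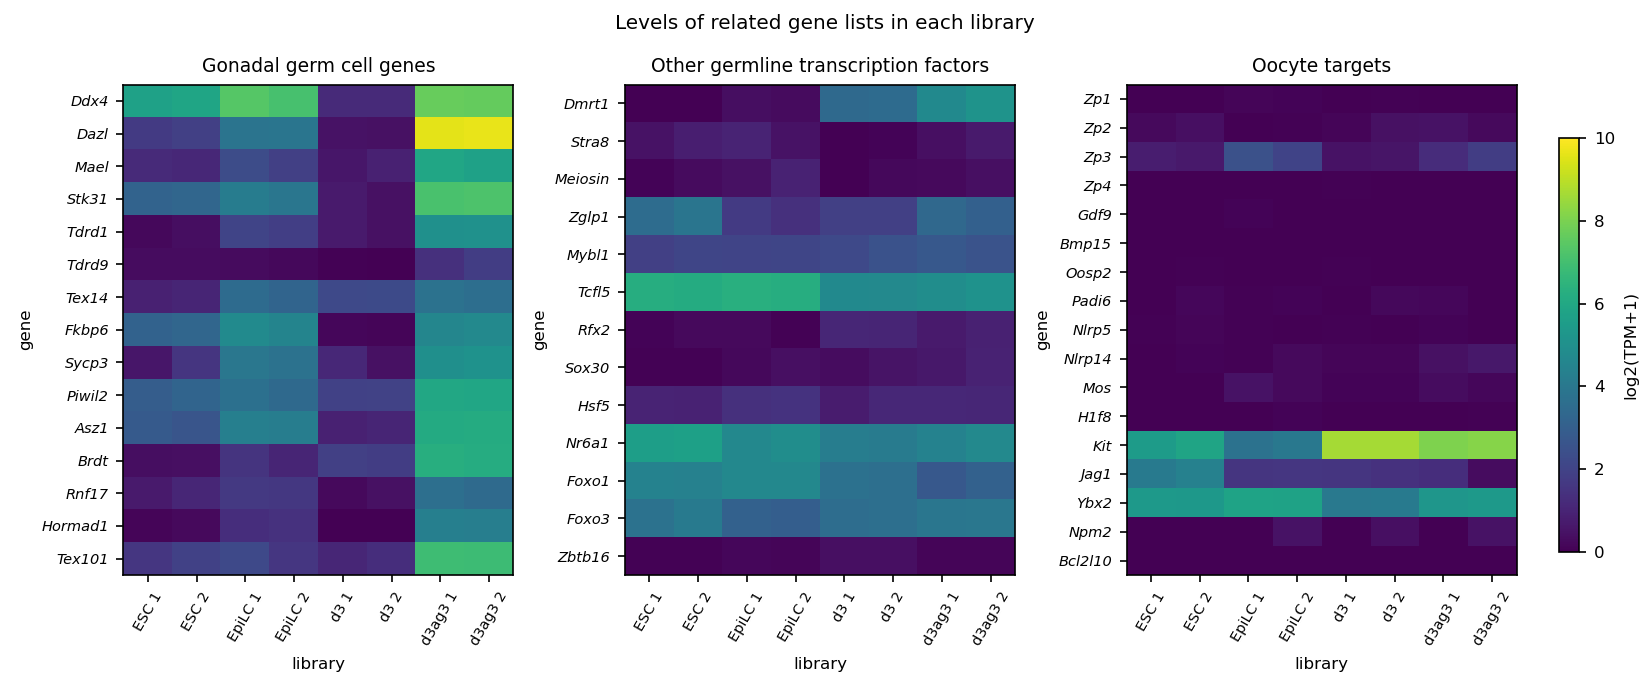
Heat maps of log2(TPM+1) in each of the 8 libraries (columns, in stage order) for gonadal germ cell genes, other germline transcription factors and oocyte genes (rows); the colour bar runs from 0 to 10. Most gonadal germ cell genes are dark in PGCLC_d3 and bright in PGCLC_d3ag3, and most oocyte targets are near 0 in every library.

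Genes with the most similar course were ranked by Pearson's r of log2(TPM+1) over the 8 libraries, among 8470 genes whose group means spanned at least 1. The libraries fall into 4 groups, so r mainly reflects group means and is given as a description. Nearest to Sohlh2 were Rhox3 (r = 0.98), Nuggc (0.98) and Per3 (0.98), and to Taf7l were Sycp3 (0.99), Nxf7 (0.99) and Ptpn20 (0.99). Sycp3 averaged 1.24 TPM in ESC, 13.7 TPM in EpiLC, 0.755 TPM in PGCLC_d3 and 31.9 TPM in PGCLC_d3ag3. Nearest to Nobox were Acsl4, Nxt2 and Fads2 (r = 0.998, 0.996 and 0.995), to Figla Xlr3a, Eif5b and Oca2 (0.99, 0.99 and 0.98), and to Taf4b Ndufb4, Bet1 and Sgpp1 (0.99 each). Among the members, r was 0.93 between Sohlh2 and Taf7l, 0.91 between Figla and Taf4b, 0.81 between Sohlh2 and Nobox, and -0.13 between Figla and Nobox. The 5 tested members thus did not all follow the same course.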

How the data were processed

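Per the labels' protocols, RNA extraction used PicoPure, and SMART-Seq v4 and KAPA Hyper Prep served for library preparation. Per the submitters' processing notes, bcl2fastq 2.20, cutadapt 1.1.6, HISAT2 2.1.0, featureCounts of Subread 1.6.5 and build rn7 were used. The authors deposited 1 log2(TPM+1) value per gene and library. Of the table, 11066 blank rows were left out.

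Groups come from sample titles. TPM was recovered as the power of 2 minus the pseudocount of 1. Genes with at least 1 TPM in at least 2 of 8 libraries were fitted with limma 3.58.1 in R 4.3.3 (trend, 2-sided, 4 groups together, 4 residual degrees of freedom), with Benjamini-Hochberg adjustment. The fit was tested on simulated data. Relative depth is the commonest ratio between low values of 2 libraries, with a largest error of 0.15% on simulated data. Read totals are unknown. Amplified reads do not each stand for 1 molecule.

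Members and lists were chosen with earlier results of these data known. The genes named are all members, Tbp and Taf7, the bHLH partners and inhibitors, the markers, the 3 largest called changes of each other list per successive step, and the 3 most similar genes of each tested member, leaving out clone-style symbols. Genes named outside this rule, such as the zona pellucida genes below the filter, were chosen after their values were seen. Protein sequences were not used here.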

Additional observations from a re-analysis of the deposited data

How the results depend on the processing

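The 5 tested members gave 30 differences, of which 24 were called. Under 17 alternatives (pseudocounts 0.1 and 0.5, no filter, a filter at 5 TPM, 2 rescalings, only the 2 groups compared, no trend, replicate block, each library left out), 394 of the 400 values of called differences kept direction and call. Figla and Nobox gave no value under the filter at 5 TPM. The calls that were lost, gained or turned all concern Taf4b. Another 2 uncalled values changed sign without a call, PGCLC_d3 minus ESC of Taf7l (0.042 without ESC replicate 2) and of Taf4b (0.017 without PGCLC_d3 replicate 1). Leaving out a library leaves its group with 1, which is then assumed to vary like the other groups. PGCLC_d3 minus EpiLC turned to log2 -0.065 after quantile normalization and -0.014 after median-of-ratios rescaling (limma adjusted p = 0.434 and 0.877), and was 0.21, 0.27 and 0.22 without EpiLC replicate 2, PGCLC_d3 replicate 1 and PGCLC_d3 replicate 2 (limma adjusted p = 0.0858, 0.0549 and 0.107). EpiLC minus ESC was -0.22 without EpiLC replicate 2 (limma adjusted p = 0.0859). PGCLC_d3 minus ESC passed at -0.28 and -0.31 after those rescalings (limma adjusted p = 0.00611 and 0.00347). The cause was not tested.

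The pseudocount set the size of low genes: with 0.1, PGCLC_d3ag3 minus PGCLC_d3 was 4.69 for Figla, 1.67 for Nobox, 5.08 for Taf7l and 7.40 for Sohlh2. Counts of called genes over all alternatives ran from 7684 to 9883 for EpiLC versus ESC, 8439 to 11216 for PGCLC_d3 versus EpiLC, 7904 to 10455 for PGCLC_d3ag3 versus PGCLC_d3, 8654 to 11583 for PGCLC_d3 versus ESC, 8734 to 11779 for PGCLC_d3ag3 versus EpiLC and 8742 to 11508 for PGCLC_d3ag3 versus ESC. Same-numbered replicates did not deviate together (r from -0.037 to 0.066), and with the replicate block 9171, 10211, 9589, 10478, 10583 and 10517 genes were called in the same order. The members' calls were the same. Sohlh1 was tested only without the filter, and leaving out libraries there and for the related lists was added after seeing the data. Read totals are unknown, and Sohlh1, Lhx8 and Tbpl2 were at most at 0.871 TPM, so differences in them may not be detectable here.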
